A study of Mus musculus with 5 samples.

Results

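The genes of the constitutive proteasome were compared between intestinal tumours and normal intestinal epithelium of the mouse. Members were all genes of the array whose single platform symbol begins with Psm, one of the letters a to g and a digit, without the immunoproteasome genes Psmb8, Psmb9 and Psmb10. This gave 45 genes of 12393 measured, each read through the probe set with the highest average signal. Of these, 43 encode subunits, activators, an inhibitor or assembly chaperones of the proteasome, and the pattern also took in Psmc3ip and Psme3ip1, which encode proteins that bind a proteasome component and are not subunits.

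The 3 tumour arrays (tumours 16, 18 and 2) came from intestinal tumours of Apc1638N mice on the C57Bl6/J background, and the 2 wild-type arrays (wild types 36 and 62) from normal intestine of C57Bl6/J mice. All animals were labelled as male and 8 months old. Apc1638N mice carry an engineered truncating allele of Apc, a component of the complex that degrades beta-catenin. Epithelium of all samples was isolated from sections by laser capture microdissection, which takes up selected cells only. No tumour-free epithelium of Apc1638N mice was analysed here, so tumour state and genotype cannot be told apart. Whether the samples are from separate animals is not labelled. The p-values therefore measure only the spread between these samples, which may be technical, and precision is limited by how few arrays there are.

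The values were log2 signals per probe set, with array medians between 6.81 and 6.87. Epithelial markers were present in both groups, with the log2 of their summed signal (8 of 8 markers measured) between 14.7 and 15.1 in tumours and between 14.8 and 14.96 in wild type. Single epithelial markers moved apart, with Krt18 and Krt19 higher by 2.44 and 1.197 and Vil1 lower (-1.26), and the other 5 did not pass. Of those 5, tumours lay below both wild-type arrays for Krt20 (-1.82), Cldn7 (-0.62) and Epcam (-0.48). They lay above both for Krt8 (0.42), and the groups overlapped for Cdh1 (0.26). For markers of other cells, sums differed between groups in some lists. The sum of 9 measured T and natural killer cell markers ran from 9.77 to 10.04 in tumours and from 11.55 to 11.98 in wild type. That of 6 fibroblast markers ran from 10.96 to 13.27 in tumours and from 9.81 to 10.24 in wild type, and that of 4 smooth muscle markers from 10.50 to 10.70 and from 9.56 to 9.91. Among the smooth muscle markers 1 of 4 passed, Acta2 (1.22), while Tagln, Myh11 and Des differed by 0.29, -0.01 and -0.04. Among the fibroblast markers 1 of 6 passed, Dcn (2.60), though all 6 had every tumour above both wild-type arrays. Col3a1, Col1a2, Col1a1, Vim and Lum differed by 2.32, 2.32, 1.80, 0.83 and 0.47. Over all genes, 11.3% passed as higher and 10.5% as lower. Sums overlapped for 5 macrophage markers (10.15 to 11.12 and 9.95 to 10.61), 1 of which was below the 25th percentile of every array, and for 2 of 3 red blood cell markers they were 7.38 to 7.51 and 7.33. The macrophage marker Lyz2 was higher by 1.67 without overlap (adjusted p = 0.0502 in limma), and the other 4 differed by -0.07 to 0.19. The array controls for transcript integrity differed too. The 3′ minus 5′ log2 signal of beta-actin was 3.999, 4.25 and 4.21 in tumours 16, 18 and 2, and 3.32 and 2.51 in wild types 36 and 62. That of Gapdh was 4.50 to 4.83 in tumours and 3.67 to 4.01 in wild type. The part of these differences in the results below was not tested. In such samples, fewer cells of a type and less RNA per cell cannot be told apart.

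The proteasome degrades proteins that carry ubiquitin chains. Its barrel-shaped core is built from alpha subunits, which form the outer rings and the gate, and beta subunits, which form the inner rings and hold the catalytic sites. A regulatory particle caps the core. Its base contains a ring of ATPases that unfold substrates, and its lid removes the ubiquitin. Other caps, the activators, open the gate without ATP, and dedicated chaperones assemble the rings. In cells exposed to interferon, newly built cores take up the immunoproteasome set of catalytic subunits instead, which shapes peptides for MHC class I.

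Expression of the constitutive genes rose for a minority in tumours and fell for 1. Of 43 genes, 10 rose, 1 fell and 32 did not pass an adjusted p of 0.05 in limma, adjusted over all genes. The genes that rose were the catalytic subunit gene Psmb6, the ATPase genes Psmc4 and Psmc2, the base gene Psmd1, the lid genes Psmd6 and Psmd11 and the assembly chaperone genes Psmg3, Psmg1, Psmg4 and Psmd5. The gene that fell was Psme1, which encodes a subunit of an interferon-inducible activator. The rises ran from 1.39-fold to 1.92-fold. The members that rose were 23.3% of the list, against 11.3% of all genes, and the member that fell was 2.33%, against 10.5%. In either direction, 21.7% of all genes passed. At an unadjusted p under 0.05, 13 members were higher and 3 lower, where 19.5% of all genes were higher and 16.9% lower. Psme1 alone also passed a 2-fold minimum, as did 3.45% of all genes on the higher and 4.49% on the lower side. The median change was 0.19 on the log2 scale, beside 0.004 over all genes, and 32 changes were above 0 and 11 below.

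The count of rises depended on single arrays and on the type of probe set. Refitting with a single array absent gave 3, 5 and 8 higher members without tumours 16, 18 and 2, and 1 and 0 without wild types 36 and 62. Over all genes, the same fits called 2.90%, 4.28%, 10.4%, 1.96% and 0% of genes higher. Without wild type 62 no gene of the array passed in limma, although 19 members were higher and 1 lower at an unadjusted p under 0.05, beside 16.5% and 14.8% of all genes in that fit. On the lower side, the fits without tumours 16, 18 and 2 called 0, 1 and 1 members, and 2.90%, 4.05% and 8.75% of all genes. The lower member was Psme1 both without tumour 18 and without tumour 2. Some probe sets match several transcripts, of the same gene or of different genes, and are marked as such by their names. Once these were removed, 36 members remained measured, of which 6 rose, beside 8.26% of the genes tested in that fit. The median change was 0.08 without wild type 36, 0.30 without wild type 62, 0.10 without probe sets of shared targets and 0.11 when all probe sets of each gene were averaged.

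**Figure D1:**
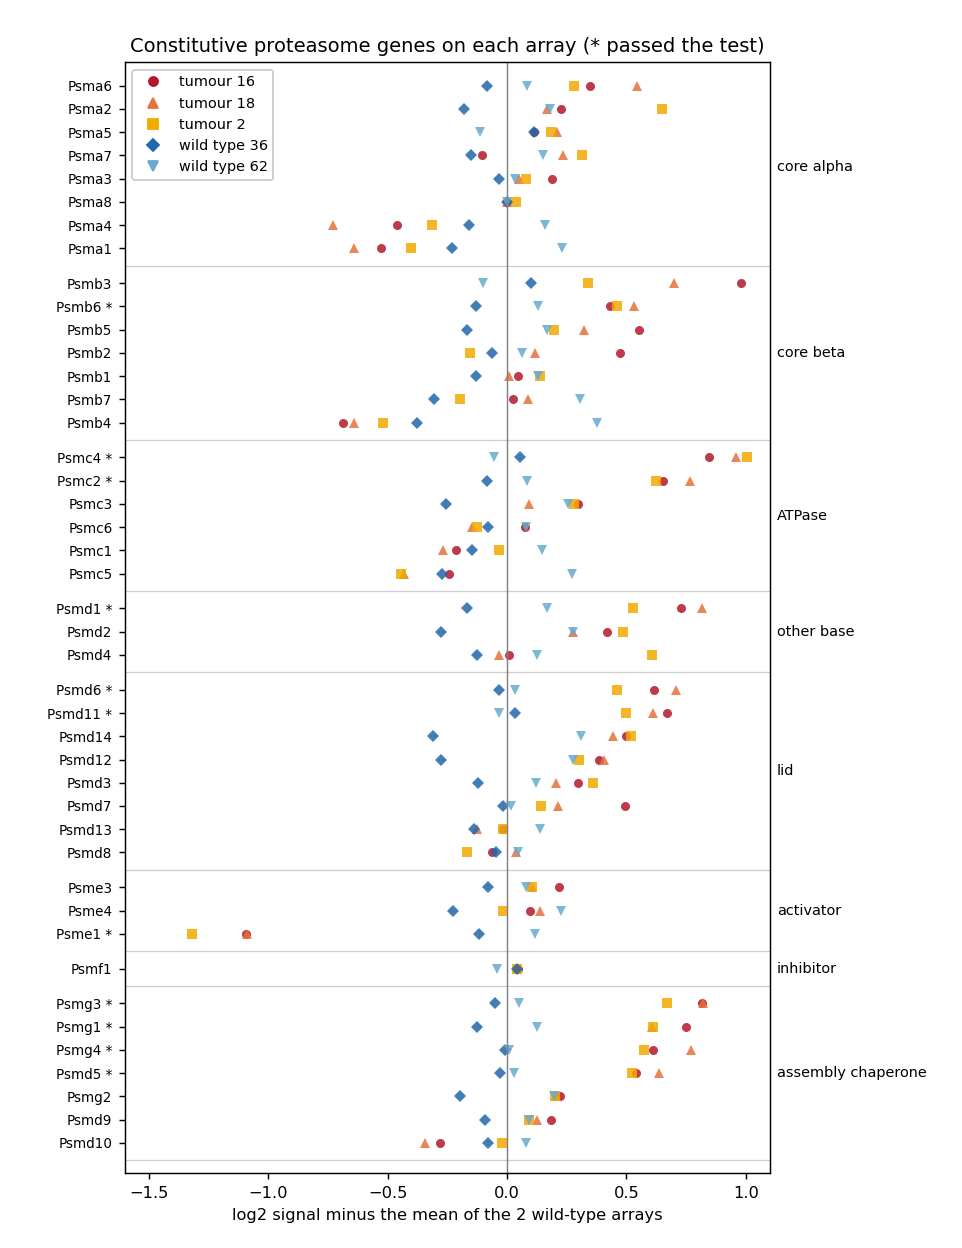
Log2 signal of each of the 43 constitutive proteasome genes on each of the 5 arrays, minus the mean of the 2 wild-type arrays (horizontal axis), with genes grouped by role and an asterisk at the 11 that passed the test. For Psmc4 the 3 tumours sit at 0.85 to 1.007 and for Psme1 at -1.32 to -1.09. Among the core alpha genes tumours lie above the wild-type arrays for Psma6, on its brightest probe set, and below them for Psma4 and Psma1.

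The sequences just before the transcription start are shown for the catalytic subunit genes Psmb5 and Psmb6, for Psmc4, the member with the largest rise, and for Psme1, the member that fell. They are the last 100 bases before the start in RefSeq (GRCm38.p6), 5′ to 3′ on the gene's strand. Capitals mark a match to TGACNNNGC on either strand, the core of the antioxidant response element that the proteasome regulator NRF1 (encoded by Nfe2l1) is known to bind. The stretches are chr14:54617996-54618095 (minus strand) for Psmb5, chr11:70525257-70525356 (plus strand) for Psmb6, chr7:28050093-28050192 (minus strand) for Psmc4 and chr14:55578394-55578493 (plus strand) for Psme1.
Psmb5: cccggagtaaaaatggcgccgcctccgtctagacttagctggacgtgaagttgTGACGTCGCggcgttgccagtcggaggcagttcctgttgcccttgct
Psmb6: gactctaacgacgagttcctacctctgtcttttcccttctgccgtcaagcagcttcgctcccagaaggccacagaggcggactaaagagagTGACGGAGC
Psmc4: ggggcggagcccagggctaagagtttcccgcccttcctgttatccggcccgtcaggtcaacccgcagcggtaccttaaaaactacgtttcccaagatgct
Psme1: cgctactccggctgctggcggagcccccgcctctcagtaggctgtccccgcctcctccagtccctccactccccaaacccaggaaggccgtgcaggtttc
The match ended 39 bases before the start in Psmb5 and 1 base before it in Psmb6, and these letters were not found in the stretches of Psmc4 and Psme1. RefSeq promoters were matched by symbol for 35 of the 43 genes (37 promoters), without Psma8, Psmb1, Psmb2, Psmb7, Psmc3, Psmd3, Psmd7 and Psmg2. Member promoters on 1 chromosome were left out by a filter that was not applied to all promoters. In the 250 bases before the start, 5 of 37 member promoters (13.5%) held TGACNNNGC, beside 10.2% of all 32851 promoters. They belonged to Psmb5, Psmb6, Psmc6, Psmd12 and Psmd9, of which 1, Psmb6, rose. The CCAAT box was found in 12 of 37 (32.4%), beside 33.8% of all promoters, and the interferon-stimulated response element (GAAA, 2 bases of any kind, GAAA) in 3 of 37 (8.11%), beside 2.98%, namely in Psmb3, Psmd4 and Psmd9. Neither this element nor TTCNNNGAA, the gamma-activated site, was found in the 250 bases before Psme1. TTCNNNGAA was found in 1 of 37 (2.70%), in Psmg1, beside 7.02% of all promoters. Both strands were searched for each, and the matches describe letters only.

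Among the alpha subunits of the core, none passed the test. Of 8 genes, 1 was higher and 2 lower at an unadjusted p under 0.05 (19.5% and 16.9% of all genes), and the median change was 0.13. The highest change was that of Psma6, with log2 signals of 11.86, 12.05 and 11.79 in tumours 16, 18 and 2, and 11.43 and 11.59 in wild types 36 and 62. The groups did not overlap, and the difference of 0.39 (SE 0.10) had a limma adjusted p of 0.0693. That probe set has shared targets. Another probe set of Psma6, with its own target, differed by -0.29 (limma p adjusted over all probe sets, 0.203). On it every tumour lay below both wild-type arrays. The remaining probe sets of Psma6 differed by -0.10 and 0.06, with signals below the 25th percentile of every array.

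Psma1 had the lowest change of the alpha subunits, with 8.22, 8.11 and 8.35 in the tumours and 8.52 and 8.98 in wild type. All tumours lay below both wild-type arrays, by 0.52 on average (SE 0.17, limma adjusted p = 0.101). Psma4 ran the same way, with 8.26, 7.99 and 8.405 against 8.56 and 8.88 and a difference of -0.50 (adjusted p = 0.113 in limma). These 2 of the 8 alpha genes (25%) were below wild type in every tumour and did not pass. Over all genes, 23.7% had every tumour below both wild-type arrays. Psma2, Psma5, Psma7 and Psma3 differed by 0.35, 0.17, 0.15 and 0.11, and of these the groups did not overlap for Psma3. Tumours lay above both wild-type arrays for Psma6 and Psma3, also 25%, beside 27.0% of all genes. Psma8, a form of alpha subunit made mainly in the testis, had log2 signals of 5.61 to 5.65 on all arrays, below the 25th percentile of each array (6.04 to 6.07).

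Among the beta subunits Psmb6, the caspase-like catalytic subunit, was the 1 core gene of 15 that rose. Its log2 signals were 10.30, 10.41 and 10.34 in tumours 16, 18 and 2, against 9.74 and 10.002 in wild types 36 and 62. The 3 tumours lay close together and above both wild-type arrays, a rise of 0.47 (SE 0.09, 1.39-fold, adjusted p = 0.0340 in limma). The call was lost without any single array, with changes between 0.35 and 0.60 in those fits.

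Psmb5, the chymotrypsin-like catalytic subunit, had 10.25, 10.02 and 9.89 in the tumours and 9.53 and 9.86 in wild type. The groups did not overlap, though tumour 2 lay just above wild type 62, and the difference of 0.36 (95% interval -0.07 to 0.79, adjusted p = 0.197 in limma) did not pass. Psmb7, the trypsin-like catalytic subunit, had 8.77, 8.84 and 8.55 in the tumours and 8.44 and 9.05 in wild type. All 3 tumours fell between the wild-type arrays, and the difference was -0.03 (95% interval -0.61 to 0.56).

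The remaining beta subunits are structural. Psmb3 had 12.35, 12.07 and 11.71 in the tumours against 11.47 and 11.28 in wild type, the highest change of the group at 0.67 (SE 0.21, adjusted p = 0.0997 in limma). Tumour 2 was the closest to wild type, and without tumour 2 Psmb3 passed. Its other probe set differed by 0.10. Psmb4 had the lowest change, -0.62 (SE 0.25, adjusted p = 0.162 in limma), with 9.40, 9.45 and 9.57 in the tumours and 9.71 and 10.47 in wild type. Without wild type 36 it was lower with a call, and its other probe set differed by 0.13, in the opposite direction. Psmb2 and Psmb1 differed by 0.15 and 0.06, with overlapping groups.

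The ATPase ring of the base was divided. Psmc4 had the largest rise of all members, with 9.48, 9.59 and 9.64 in tumours 16, 18 and 2 and 8.69 and 8.58 in wild types 36 and 62. The groups stood well apart, by 0.94 (SE 0.07, 1.92-fold, adjusted p = 0.00593 in limma). Among the fits without 1 array, the call of Psmc4 was lost in that without wild type 62 alone. Psmc2 had 11.47, 11.58 and 11.44 in the tumours and 10.73 and 10.90 in wild type, a rise of 0.68 (SE 0.08, 1.60-fold, adjusted p = 0.0116 in limma). This call was lost without tumour 16, wild type 36 or wild type 62. Both genes were read by probe sets with shared targets, which for Psmc4 are named as transcripts of the same gene. Their other probe set differed by 0.33 for Psmc4 and by 0.07 for Psmc2 (limma p-values adjusted over all probe sets, 0.206 and 0.878), where 9.58% of all probe sets were called higher and 8.72% lower.

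The other ATPase genes did not pass. Psmc5 had the lowest change, -0.37 (SE 0.19, adjusted p = 0.246 in limma), with 7.80, 7.61 and 7.59 in the tumours and 7.77 and 8.31 in wild type. Tumour 16 lay above wild type 36, so the groups overlapped. Psmc3, Psmc6 and Psmc1 differed by 0.22, -0.07 and -0.17, also with overlapping groups.

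In the rest of the base, Psmd1, a large scaffold subunit, rose. Its log2 signals were 9.43, 9.52 and 9.23 in the tumours and 8.53 and 8.86 in wild type, with all tumours above both wild-type arrays and a difference of 0.69 (SE 0.14, 1.61-fold, adjusted p = 0.0390 in limma). The call was lost without any single array. Psmd2, the other scaffold, differed by 0.39 (adjusted p = 0.230 in limma) and its tumour 18 was level with wild type 62. Psmd4, a receptor for ubiquitin chains, had the lowest change of the group, 0.19, with 8.96, 8.92 and 9.56 in the tumours and 8.83 and 9.08 in wild type. Tumour 2 alone was above both wild-type arrays for Psmd4.

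The lid had 2 rises and 0 falls among 8 genes, and 3 genes were higher and 0 lower at an unadjusted p under 0.05 in limma (19.5% and 16.9% of all genes). Tumours lay above both wild-type arrays for 6 of the 8, as for 27.0% of all genes. Psmd6 had 9.02, 9.11 and 8.87 in the tumours and 8.37 and 8.44 in wild type, a rise of 0.59 (SE 0.09, adjusted p = 0.0190 in limma). Psmd11 had 11.38, 11.32 and 11.21 against 10.74 and 10.67, also a rise of 0.59 (SE 0.07, adjusted p = 0.0112 in limma). In both lid genes the lowest tumour was clear of the highest wild-type array. Both calls were kept without tumour 2 and lost without any other single array.

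Psmd14, the lid enzyme that cuts ubiquitin from substrates, had 10.68, 10.62 and 10.70 in the tumours and 9.87 and 10.49 in wild type. The tumours lay close together, the wild-type arrays differed by 0.62, and the difference of 0.49 (95% interval -0.06 to 1.03, adjusted p = 0.172 in limma) did not pass. Psmd12, Psmd3 and Psmd7 differed by 0.37, 0.29 and 0.28, again without overlap and without a call. Another probe set of Psmd7 was higher by 0.50 (adjusted p = 0.0122 over probe sets). Psmd8 had the lowest change, -0.06, with 8.55, 8.65 and 8.45 in the tumours and 8.57 and 8.66 in wild type, and Psmd13 differed by -0.05.

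The activators parted from each other. Psme1, which encodes the alpha subunit of the interferon-inducible cap, had 8.90, 8.90 and 8.67 in tumours 16, 18 and 2 and 9.87 and 10.11 in wild types 36 and 62. It fell by 1.17 on the log2 scale (SE 0.11, 2.25-fold, adjusted p = 0.00934 in limma), the 1 member past a 2-fold difference. Beside this fall, 6 of the 9 measured T and natural killer cell markers also fell, and their part in it was not tested. The call was lost without tumour 16, wild type 36 or wild type 62, with an adjusted p of up to 0.0697 in limma. Psme3, whose product forms a related cap in the nucleus, had the highest change, 0.14 (adjusted p = 0.245 in limma), with 7.46, 7.34 and 7.34 in the tumours and 7.16 and 7.32 in wild type. Psme4, a large nuclear activator, differed by 0.07, with overlapping groups. Psmf1, which encodes an inhibitor of the core, had 7.92 on all 3 tumours and 7.92 and 7.83 in wild type, a difference of 0.04.

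Assembly chaperones were the group with the most rises, 4 of 7, with 0 falls and a median change of 0.57. At an unadjusted p under 0.05 in limma 4 were higher and 0 lower, beside the same 19.5% and 16.9% of all genes. Psmg3, which with its partner Psmg4 helps to build the alpha ring, had 7.98, 7.98 and 7.83 in the tumours and 7.11 and 7.21 in wild type. The gap between groups was wide beside the spread within them, and Psmg3 rose by 0.77 (SE 0.07, 1.71-fold, adjusted p = 0.00812 in limma). Psmg4 had 7.53, 7.69 and 7.49 against 6.91 and 6.93, a rise of 0.65 (SE 0.07, adjusted p = 0.0112 in limma). Psmg1, of the other chaperone pair of the alpha ring, had 8.12, 7.98 and 7.98 against 7.24 and 7.497, a rise of 0.66 (SE 0.10, adjusted p = 0.0198 in limma). All 3 genes had every tumour above both wild-type arrays.

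Psmg2, the partner of Psmg1, differed by 0.21 (adjusted p = 0.315 in limma), with 6.43, 6.41 and 6.41 in the tumours and 6.01 and 6.40 in wild type. Among the chaperones of the base, Psmd5 rose by 0.57 (SE 0.05, adjusted p = 0.00829 in limma), with 8.17, 8.27 and 8.16 in the tumours and 7.60 and 7.66 in wild type. Psmd9 differed by 0.13. Psmd10, which encodes gankyrin, had the lowest change of the chaperones at -0.21 (adjusted p = 0.297 in limma), with 5.72, 5.66 and 5.98 in the tumours and 5.92 and 6.08 in wild type. Tumours 16 and 18 lay below both wild-type arrays for Psmd10 and tumour 2 between them. In the fits without 1 array, the calls of Psmg3 and Psmd5 were lost without either wild-type array. That of Psmg4 was also lost without tumour 16, and that of Psmg1 without any array.

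The wild-type arrays differed from each other across the members. Wild type 62 was above wild type 36 for 37 of 43 constitutive genes (86%), against 50.3% of all genes, with a median gap of 0.25, against 0.001 over all genes. The gap exceeded 0.5 for 7 members, Psmb4, Psmd14, Psmb7, Psmd2, Psmd12, Psmc5 and Psmc3, or 16.3%, against 3.36% of all genes. None of these 7 passed the test. A wide gap raises the SE of the test, so passing is not independent of the gap. All tumours lay above both wild-type arrays for 20 of 43 genes (46.5%), against 27.0% of all genes, and below both for 4 (9.30%), against 23.7%. Of the 20, the 10 that passed had gaps from -0.11 to 0.33, and the 10 that did not pass had gaps from -0.20 to 0.62. The tumour mean was above wild type 36 for 35 members and above wild type 62 for 28. Wild type 62 was also the array with the smallest 3′ minus 5′ difference of both controls, whose part in the gap was not tested.

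**Figure D2:**
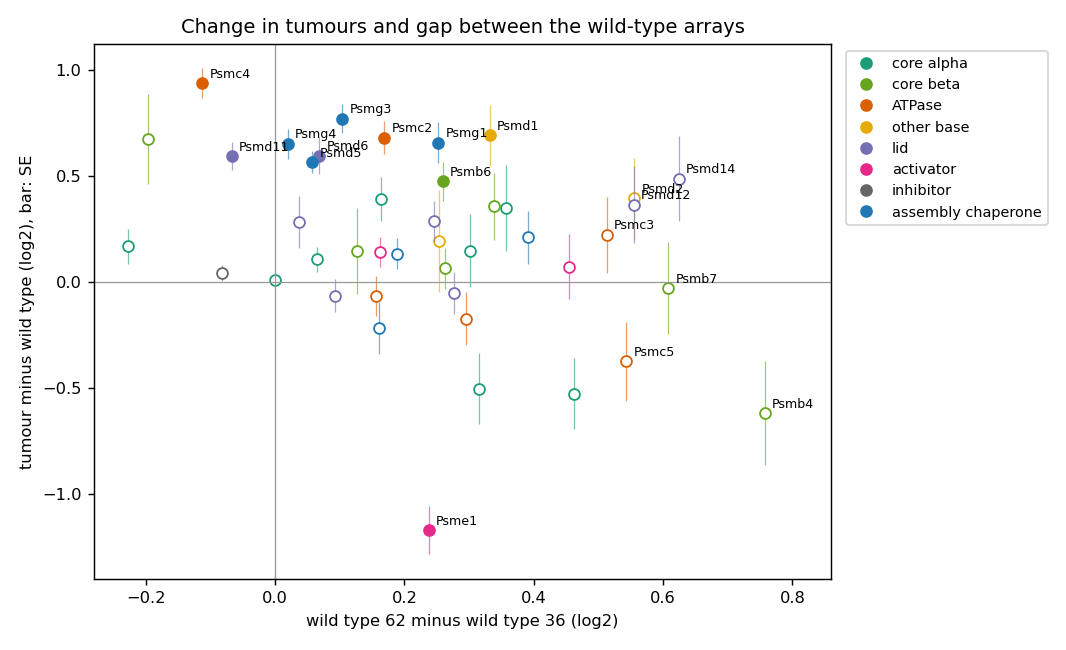
Change in tumours (tumour minus wild type, log2, vertical axis, bars of 1 SE) against the gap between the wild-type arrays (wild type 62 minus wild type 36, log2, horizontal axis) for the 43 constitutive genes, coloured by role. Filled points passed the test, and most points lie to the right of 0, where wild type 62 was the higher of the pair.

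Constitutive catalytic subunits were set against the interferon-inducible subunits that can replace them. Psmb9, which replaces Psmb6, had 7.43, 7.44 and 7.71 in the tumours and 9.99 and 10.21 in wild type. Psmb8, which replaces Psmb5, had 6.89, 7.14 and 7.20 against 9.08 and 9.51. Psmb10, which replaces Psmb7, had 7.93, 7.78 and 8.47 against 9.41 and 9.80. All 3 fell, with log2 differences of -2.57 (SE 0.12), -2.22 (SE 0.17) and -1.55 (SE 0.26) and limma adjusted p-values of 0.00491, 0.00651 and 0.0253.

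Within each array the difference between the constitutive and the inducible gene of a pair was then compared. The log2 ratio of Psmb6 to Psmb9 was 2.87, 2.97 and 2.62 in the tumours and -0.24 and -0.20 in wild type, a change of 3.04 (8.24-fold). The ratio of Psmb5 to Psmb8 changed by 2.57 (5.95-fold) and that of Psmb7 to Psmb10 by 1.52 (2.87-fold). In each of the 3 pairs every tumour was above both wild-type arrays. The exact two-sided permutation p was 0.1 for each, the smallest that 10 splits of the arrays allow, and 0.1 after Benjamini-Hochberg adjustment over 3 pairs, so the design cannot reach 0.05. The ratios describe unequal change of the genes of a pair on these arrays, which the test cannot decide. Beside them, 6 of the 9 measured T and natural killer cell markers fell.

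**Figure D3:**
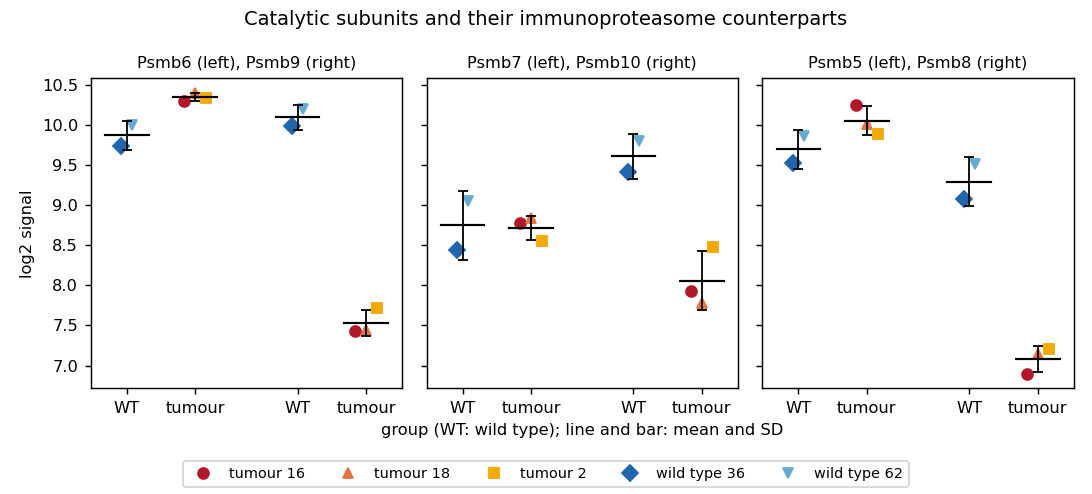
Log2 signal (vertical axis) of Psmb6, Psmb7 and Psmb5 and of their immunoproteasome counterparts Psmb9, Psmb10 and Psmb8 in the 2 wild-type and 3 tumour arrays, with points for arrays, lines for group means and bars for the SD. The inducible gene of each pair is lower in every tumour than in both wild-type arrays, while the constitutive genes differed by 0.47, -0.03 and 0.36.

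Genes that act with the proteasome were examined as a fixed list of 32, of which 23 were measured. Of these, 4 rose, 3 fell and 16 did not pass, that is 17.4% and 13%, beside 11.3% and 10.5% of all genes. Txnl1, a thioredoxin-like protein that binds the regulatory particle, rose by 1.05 (SE 0.16, adjusted p = 0.0199 in limma), with 10.98, 11.01 and 10.69 in the tumours and 9.67 and 10.02 in wild type. The shared targets of that probe set are named as transcripts of the same gene, and the 5 other Txnl1 probe sets differed by -0.34 to 0.26. Nfe2l3, a transcription factor related to Nfe2l1, rose by 0.44, and another of its probe sets, with its own target, by 1.48 (limma p adjusted over all probe sets, 0.0420). The deubiquitinase genes Uchl5 and Usp14 rose by 0.39 and 0.36. Uchl5 had log2 signals of 6.08 to 6.56, near the 25th percentile of the arrays (6.04 to 6.07), and its other probe set differed by 0.10. Nfe2l1, the activator of proteasome genes, differed by 0.17 (adjusted p = 0.143 in limma) and its tumours lay above both wild-type arrays.

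Falls on the list were those of Nfe2l2, Pomp and Ecpas. Nfe2l2, which encodes the oxidative stress regulator NRF2, had 9.50, 9.30 and 8.997 in the tumours and 10.36 and 10.64 in wild type and fell by 1.24 (SE 0.19, adjusted p = 0.0198 in limma). Pomp, the chaperone that guides maturation of the beta ring, had 8.92, 8.94 and 9.22 against 9.53 and 9.59 and fell by 0.54 (SE 0.11, adjusted p = 0.0395 in limma). Pomp thus fell while 3 of the 4 Psmg genes for alpha ring assembly rose. Ecpas, which encodes a scaffold that binds the proteasome, fell by 0.48 (SE 0.10, adjusted p = 0.0350 in limma). Its signals in the tumours, 5.72 to 5.90, were below the 25th percentile of each array. All 7 calls on this list were lost without tumour 16 or wild type 62. Without tumour 18 only Nfe2l3 kept its call, without wild type 36 only Usp14, and without tumour 2 all but Ecpas. The call of Pomp was also lost under quantile normalization.

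Several members were read by more than 1 probe set, and these did not always move together. Of 21 constitutive genes with several probe sets, 12 had all of them on the same side of 0. Of the 37 probe sets that were not the brightest of their gene, 28 had a smaller change than the brightest. Some of the 37, such as those of Psma1, were below the 25th percentile of every array. These counts were not compared with those of other genes. Of the 11 called genes, 7 had a single probe set. Psmd11 was read by 6, of which the brightest, with shared targets, differed by 0.59, another by 0.95 (limma p adjusted over all probe sets, 0.0117) and the rest by -0.07 to 0.09. The second probe set of Psmd6 differed by 0.22 (adjusted p = 0.561 over probe sets). Where the brightest probe set has shared targets, 4 of 18 members rose, beside 17.6% of such genes on the array. Where it has its own target, 6 of 25 members rose, beside 8.92%.

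**Figure D4:**
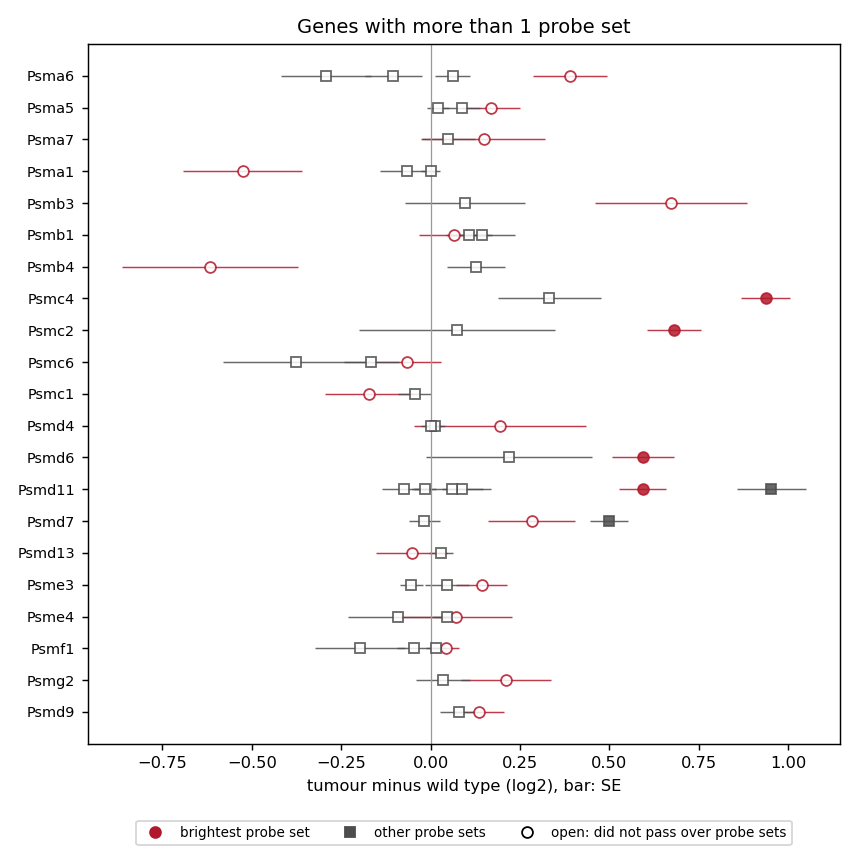
Change in tumours (tumour minus wild type, log2, horizontal axis, bars of 1 SE) for every probe set of the 21 constitutive genes with more than 1 probe set. Circles are the brightest probe set of a gene, squares the others, and filled symbols passed over probe sets, as for both kinds in Psmd11.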

How the data were processed

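Samples were grouped by their titles. The authors deposited 1 table of log2 signals for 22690 probe sets on 5 arrays; the scale was read from the values (3.38 to 14.3). The submitters' processing notes name the R package affy. How probes were summarised, corrected for background and normalized is not given in the sources used here. Values were used as deposited. After 64 control probe sets were set aside, 20380 probe sets had 1 symbol in GEO's platform annotation, 691 several and 1555 none; 0 symbols needed an update through RefSeq. Each of 12393 genes took its brightest probe set. Probe sets whose names end in _s_at, _x_at or _a_at were taken as having shared targets. Under names ending in _a_at these are transcripts of the same gene, and such probe sets were not treated apart. No genome coordinates of probe sets were used.

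Differences (tumour minus wild type) were fitted by lmFit and eBayes of limma 3.58.1, run under R 4.3.3 (group as the only term, 3 residual and 1.23 prior degrees of freedom), two-sided, with Benjamini-Hochberg adjustment over all genes, or over all probe sets where stated, and a threshold of 0.05. SE is limma's moderated standard error and intervals are 95%. The fit was tested on simulated data. Ratios within arrays had an exact permutation test. Depth does not apply to arrays.

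Members and gene lists were chosen with earlier results of these data known. Array values were given for Psmb5, Psmb6, Psmb7, called falls and the highest and lowest change of each role. Other members with array values (Psma4, Psmd11, Psmd14, Psmc2, Psmg1, Psmg2, Psmg4, Psmd5) and Nfe2l1 were added after their values were seen. Of the other genes, Psmb8, Psmb9 and Psmb10 and the called genes of the list of 32 were named. Psmb11, Psme2, Psme2b and the 9 remaining genes of that list were not analysed here. Alternatives were quantile normalization, median centring, a minimum signal at the 40th percentile, trend and robust eBayes, array weights, a 2-fold minimum, other uses of probe sets, probe sets tied within a group left out, and each array left out. Figures were drawn with matplotlib 3.10.9.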

Additional observations from a re-analysis of the deposited data

How the results depend on the processing

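With all arrays, the 11 member calls were kept under quantile normalization, median centring, the 40th percentile minimum, trend and robust eBayes, array weights and with tied probe sets left out. Quantile normalization added Psma6 and Psmd3, and called 13.1% of all genes higher and 11.5% lower. The fit as reported called 11.3% and 10.5%. The mean of all probe sets gave 9 higher members and 2 higher partner genes, with Psmc2 and Psmd6 lost and Psmd7 added. In that fit 12.3% of all genes were called higher and 11.7% lower. With shared targets left out 6 members rose, without Psmc4, Psmc2, Psmd6 and Psmd11. A 2-fold minimum left 0 higher members (also 0 at an unadjusted p under 0.05 in limma), 1 higher partner gene and 1 lower partner gene. Without 1 array in turn, counts of higher members ran from 0 to 8 (up to 12 when probe sets tied within a group were dropped as well), of lower members from 0 to 1 (up to 3), of higher partner genes from 0 to 5 and of lower partner genes from 0 to 2 (up to 3). When ties were dropped as well, the fit without wild type 62 called 9 higher members and 1 lower (4.47% and 4.80% of all genes in it), and that without wild type 36 called 5 and 3 (4.83% and 7.51%), the falls being Psme1, Psma1 and Psmb4. Psmc4, Psmc2, Psmg3, Psmd5 and Psme1 kept their calls in all 5 fits of that kind. The fit without tumour 2 and without ties, with 12 higher members, called 16.4% of all genes higher and 14% lower. The causes were not tested. In fits with 1 wild-type array, that array is assumed to vary like the tumours. No called member changed sign under any alternative. No paired analysis was possible because the groups share no replicate number. The ratio of Psmb5 to Psmb8 has no value with shared targets left out. Signal over background was not analysed here.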

Other observations

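The symbol pattern also took in 2 genes that are not proteasome subunits. Psmc3ip, which encodes a partner of the meiotic recombinases, had log2 signals of 7.20, 7.42 and 7.20 in tumours 16, 18 and 2 and 7.20 and 7.30 in wild types 36 and 62, a difference of 0.02 (limma adjusted p = 0.884). Psme3ip1, whose product binds the nuclear activator encoded by Psme3, had 8.56, 8.39 and 8.56 in the tumours and 8.63 and 8.90 in wild type. All its tumours lay below both wild-type arrays, and the difference of -0.26 did not pass (limma adjusted p = 0.169).

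The next 3 genes of the partner list were chosen after their values were seen. Vcp, the segregase that extracts ubiquitinated proteins, differed by 0.38 (limma adjusted p = 0.0676), with 10.07, 10.08 and 10.34 in the tumours and 9.78 on both wild-type arrays. Ngly1, the enzyme that removes N-glycans and acts on NRF1, differed by -0.52 (limma adjusted p = 0.0664), with every tumour below both wild-type arrays, and passed after median centring and with tied probe sets left out. Sem1, a small lid subunit outside the symbol pattern, differed by 0.11 with overlapping groups. The other Sem1 probe set differed by 0.355 (limma p adjusted over all probe sets, 0.0926), with every tumour above both wild-type arrays.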
